A study of Mus musculus with 8 samples.

Results

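The miR-26 family is a set of microRNAs (miRNAs) cut from 3 short hairpins that lie inside introns of the Ctdsp genes. Its members were chosen by name: mmu-miR-26a-5p, mmu-miR-26b-5p, mmu-miR-26b-3p, mmu-miR-26a-2-3p and mmu-miR-26a-1-3p, which are 5 of the 697 mature mouse miRNAs counted. They were measured by small RNA sequencing of cardiomyocytes, the contracting cells of the heart, which were isolated by Langendorff perfusion from 4 sham mice and 4 mice after transverse aortic constriction (TAC). The mice were males of 2 months at surgery and the cells were taken 14 weeks later. TAC narrows the aorta and loads the left ventricle with pressure, and sham mice went through surgery without the constriction. Each library came from part of the myocytes of 1 heart. The methods name ketamine and xylazine as anesthesia for the TAC operation. Beyond these, the labels and methods name no transgene, drug or other treatment in either group. The question put to the members was whether, and in which arms, their levels differed between TAC and sham cells.

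A miRNA hairpin yields a 5p and a 3p arm. One arm, the guide strand, is usually retained in an Argonaute protein and directs it to mRNAs that pair with its seed, bases 2 to 8, while the other arm, the passenger strand, is mostly degraded. The host genes Ctdsp1, Ctdsp2 and Ctdspl encode small phosphatases of the carboxy-terminal domain of RNA polymerase II, which also serve the repression of neuronal genes outside the nervous system. miR-26 is known as an abundant miRNA of differentiated tissues, with the mRNAs of the histone methyltransferase Ezh2 and of its own host Ctdsp2 among its targets, and in the heart it has been studied as a brake on hypertrophic growth.

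The mature sequences below are shown because they decide which members can be told apart and which mRNAs they can address. They were taken from RefSeq on GRCm38.p6, which held all 5 members, and the capitals mark the seed.
mmu-miR-26a-5p: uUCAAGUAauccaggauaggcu
mmu-miR-26b-5p: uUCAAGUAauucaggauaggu
mmu-miR-26b-3p: cCUGUUCUccauuacuuggcuc
mmu-miR-26a-2-3p: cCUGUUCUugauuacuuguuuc
mmu-miR-26a-1-3p: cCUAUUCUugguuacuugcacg

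The 5p arms shared the seed UCAAGUA, which no other mouse miRNA in the RefSeq table carries. miR-26b-5p has 21 bases, and 19 of the 21 positions compared were identical to miR-26a-5p. The differences, counted from the 5′ end with the base of miR-26a-5p first, were C11U and C21U, both outside the seed. The 3p arms fell into 2 seed groups: miR-26a-2-3p and miR-26b-3p shared CUGUUCU and were identical at 18 of 22 positions, while miR-26a-1-3p carried CUAUUCU and was identical to miR-26a-2-3p at 16 of 22 positions. None of the other miRNAs counted in these libraries had any of these seeds.

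Mir26a-1 lies at chr9:119031796-119031885 on the plus strand, in intron 5 of the principal transcript of Ctdspl, which has 8 exons (GENCODE vM21, GRCm38). Mir26a-2 lies at chr10:126995530-126995613, in intron 5 of the principal transcript of Ctdsp2, also of 8 exons, 1621 bases after the upstream exon and 241 bases before the downstream one. In 2 of the 4 annotated Ctdsp2 transcripts, 1 protein coding and 1 with a retained intron, an exon overlaps this hairpin. Mir26b lies at chr1:74394310-74394394, in intron 4, of 564 bases, of the principal Ctdsp1 transcript, which has 7 exons. All 3 hairpins are on the strand of their host. miR-26a-5p is encoded identically at chr9:119031811-119031832 and chr10:126995543-126995564, so its counts cannot be divided between Ctdspl and Ctdsp2. The levels of the host mRNAs were not analysed here.

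The libraries held between 4005668 and 5392576 miRNA counts in sham and between 5507169 and 7798943 in TAC. Of the other cells that a cardiomyocyte preparation can hold, both endothelial miRNAs were present in every library and summed to 49248 to 72051 CPM in sham (counts scaled so that the miRNA counts of a library sum to 1000000) and 29274 to 34557 CPM in TAC (two-sided exact permutation test, p = 0.0286). The 3 erythroid miRNAs summed to 418 to 1503 CPM in sham and 43.8 to 550 CPM in TAC, the 5 of fibroblasts and smooth muscle to 41702 to 49646 and 36697 to 43821 CPM, the 4 of leukocytes to 1195 to 2360 and 937 to 1332 CPM, and the 7 of epithelia to 286 to 450 and 254 to 1456 CPM. Every listed marker was present in every library. The 6 cardiomyocyte miRNAs summed to 164096 to 200916 CPM in sham and 198416 to 248898 CPM in TAC. By the same exact permutation test, p was 0.0571 for the cardiomyocyte list and 0.0571 for the leukocyte list. It was 0.0857 for the erythroid list, 0.0857 for fibroblasts and smooth muscle and 0.857 for epithelia. None of these p values, the endothelial one included, was adjusted for the number of lists. In such bulk samples, fewer cells of a type and less RNA per cell cannot be told apart, and the part of these cells in the results below was not tested.

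miR-26a-5p dominated the family. It was counted 213052, 375805, 304955 and 234536 times in sham libraries 1 to 4 and 245116, 359856, 345201 and 419735 times in TAC libraries 1 to 4. miR-26b-5p, the guide strand of the Ctdsp1 intron, was counted 3960, 5420, 4912 and 3355 times in sham and 3545, 6351, 6784 and 7240 times in TAC. Over the 8 libraries, miR-26a-5p made up 98.3% and miR-26b-5p 1.64% of the 2540559 counts on the family, so that the 3p arms together were a trace.

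miR-26b-3p was counted 76, 47, 63 and 63 times in sham and 60, 106, 112 and 107 times in TAC. miR-26a-2-3p was counted 10, 12, 14 and 7 times in sham and 11, 12, 9 and 8 times in TAC. miR-26a-1-3p, the 3p arm of the Ctdspl hairpin, was counted 2, 3, 1 and 0 times in sham and 1, 7, 3 and 2 times in TAC. The raw counts of each member overlapped between the groups, and those of the miR-26a 3p arms stood near the limit of detection. For the sham library with no count of miR-26a-1-3p, a limit of 3 counts (one-sided 95%) corresponds to 0.749 CPM, and the upper bound of the two-sided exact Poisson 95% interval is 3.69 counts. The highest count, 7 in TAC library 2, has a two-sided exact Poisson 95% interval of 2.81 to 14.4. Such intervals cover counting error only, because the tags carry no molecular identifiers.

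**Figure D1:**
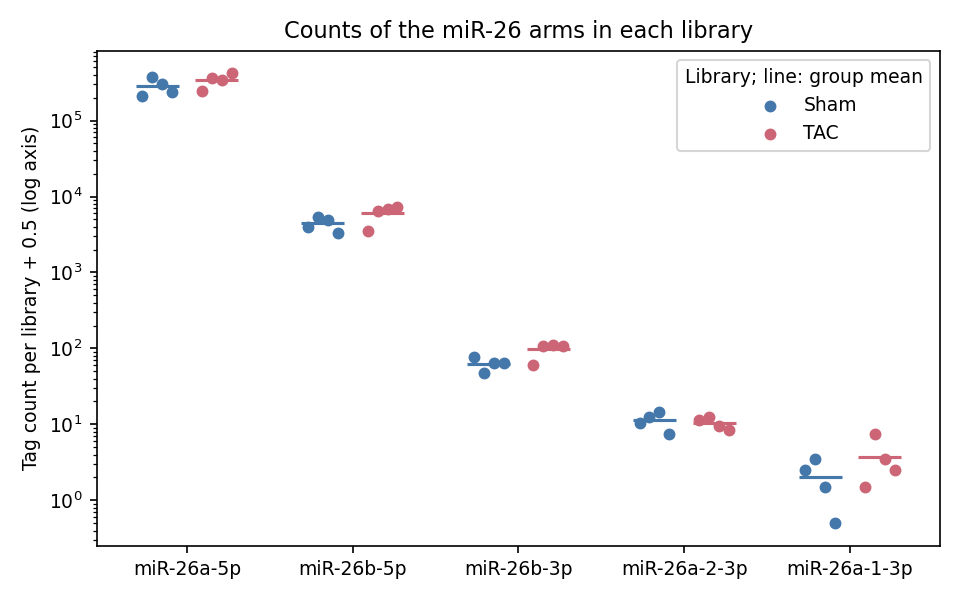
Counts of the 5 members in each library, plotted as count plus 0.5 on a log axis, with 1 point per library and a line at the group mean (4 sham, 4 TAC). miR-26a-5p lies at 213052 counts or more in every library and miR-26a-1-3p at 7 or fewer, and the sham and TAC points of each member overlap.

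Within every library the members kept the same order, miR-26a-5p, miR-26b-5p, miR-26b-3p, miR-26a-2-3p and miR-26a-1-3p. miR-26a-5p held rank 2 to 7 among all miRNAs and miR-26b-5p rank 53 to 69. Ranks were 213 to 280 for miR-26b-3p, 365 to 435 for miR-26a-2-3p and 444 to 572 for miR-26a-1-3p. These are levels per mature miRNA, all of nearly the same length.

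In sham cells, miR-26a-5p reached 59106 ± 9874 CPM (SD, n = 4) and ranked 4 by its mean. Directly above it stood miR-133a-3p, a muscle miRNA, at 67356 ± 17748 CPM, and miR-22-3p, another abundant cardiac miRNA, at 64470 ± 10201 CPM. Directly below it stood miR-99a-5p at 56693 ± 11980 CPM and let-7f-5p at 51194 ± 7840 CPM (SD over 4 mice each). The ranges of these neighbours overlapped with that of miR-26a-5p, so the order among them does not exceed the spread between mice.

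To compare the groups, counts were scaled to the reference miRNAs that the study names, miR-126a-3p, an endothelial miRNA, and miR-19b-3p, a member of the miR-17-92 cluster. How the study applied them is not stated in full, and a single factor was used here: the sizes of all TAC libraries were multiplied by 0.537, the TAC-to-sham ratio of these 2 miRNAs, and those of the sham libraries were left as they were. The SE and adjusted p values of edgeR on this scale take the factor as known and leave out its error. miR-126a-3p itself ran from 25759 to 50698 CPM in sham. Since miR-126a-3p is also an endothelial marker, its lower CPM by totals in TAC enters this factor. Because the factor is the ratio of the 2 reference miRNAs, their log2 fold changes on the reference scale nearly cancel by construction. miR-19b-3p stood at -0.10 and miR-126a-3p at 0.10, so a test of either on this scale decides nothing. miR-126a-5p did not itself enter the factor, but it is the other arm of the miR-126a-3p hairpin and so no independent check. It stood at -0.12 and did not pass the test (adjusted p = 0.430 by edgeR). The lower endothelial CPM by totals and the higher level of most miRNAs on the reference scale are therefore not independent observations. On the reference scale the 223 miRNAs that had on average more than 100 counts showed a median log2 fold change of 0.61, against -0.29 when library totals alone were used and -0.082 with TMM, edgeR's trimmed mean of M values. The reference scaling called 82 of them higher and 2 lower, totals called 1 and 23, and TMM called 3 and 10. The sign of a fold change therefore depends on the scale, and each member is described below on the reference scale, by miRNA totals and against the median of all miRNAs.

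By miRNA totals, miR-26a-5p stood at 46033, 69689, 62148 and 58551 CPM in sham and at 44509, 46142, 54445 and 58108 CPM in TAC. These values overlapped, with means of 59106 ± 9874 and 50801 ± 6532 CPM (SD over 4 mice each). On the reference scale the sham values are the same and the TAC values became 82913, 85955, 101423 and 108247 reference-scaled CPM, all above the sham libraries. The log2 fold change was 0.68 (SE 0.14, edgeR quasi-likelihood test, adjusted p = 0.00297), a fold change of 1.60, and it turned to -0.22 by totals (adjusted p = 0.264) and to -0.013 with TMM (adjusted p = 0.949). miR-26a-5p thus passed the test on the reference scale but stayed under the fold change of 1.7 that a call required. This depended on the reference: with miR-19b-3p alone the fold change was 1.72 (adjusted p = 0.00112 by edgeR), which is a call, and with miR-126a-3p alone it was 1.49 (adjusted p = 0.00801).

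miR-26b-5p stood at 856, 1005, 1001 and 838 CPM in sham and at 644, 814, 1070 and 1002 CPM in TAC by miRNA totals, with the TAC values on both sides of the sham values. On the reference scale its TAC values were 1199, 1517, 1993 and 1867 reference-scaled CPM, all above sham. Its log2 fold change was 0.83 (SE 0.17, adjusted p = 0.00289 by edgeR), a fold change of 1.78, and it was called higher in TAC on this scale, whereas by totals it was -0.067 (adjusted p = 0.791). The call was lost without TAC library 3, where the fold change was 1.63, and with miR-126a-3p alone as the reference, where it was 1.66. With miR-19b-3p alone the fold change was 1.91.

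Among the 223 miRNAs, 36.8% were called higher on the reference scale, and 1 of the 2 members tested was among them. An adjusted p below 0.05 with a higher level in TAC, whatever the fold, was reached by 63.7% of the miRNAs and by both members. The TAC libraries lay above all sham libraries for 54.7% of the miRNAs and for both members. Both 5p arms therefore stood with the majority of miRNAs on this scale, and miR-26a-5p ranked 98 and miR-26b-5p 71 of 223 from the largest log2 fold change.

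**Figure D2:**
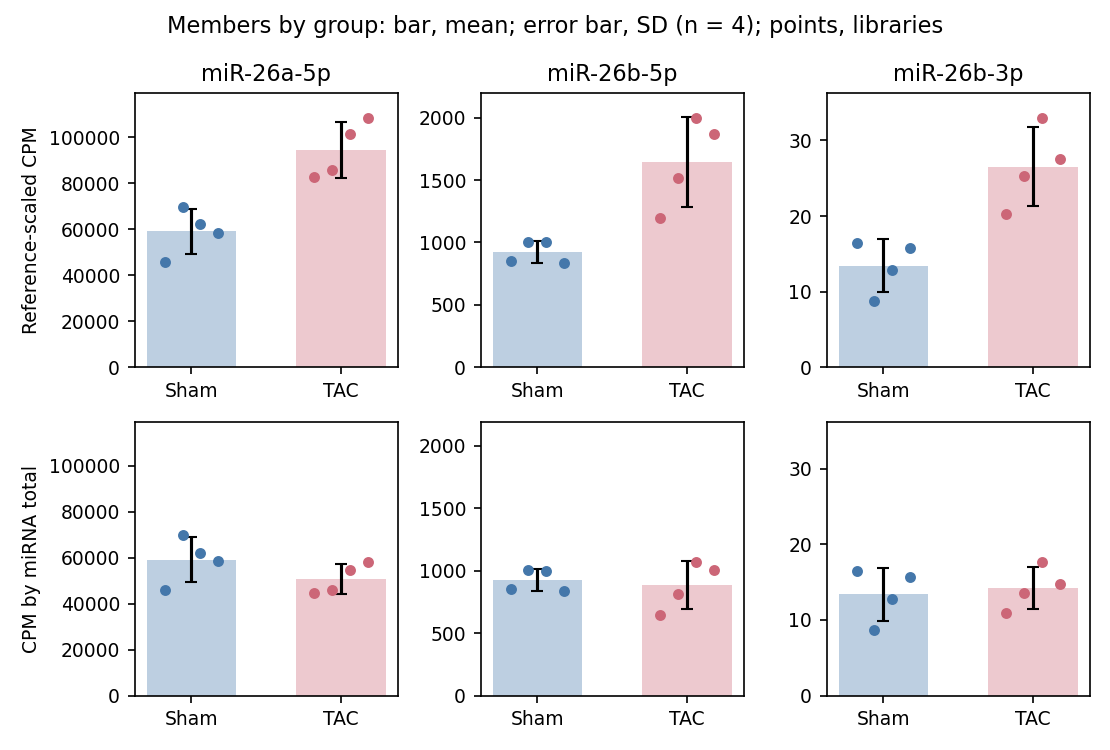
Levels of miR-26a-5p, miR-26b-5p and miR-26b-3p in sham and TAC cells, as reference-scaled CPM (upper panels) and CPM by miRNA total (lower panels). Bars are means, error bars SD (n = 4) and points libraries; all TAC points lie above sham in the upper panels and overlap with sham in the lower ones, where the mean of miR-26a-5p is 50801 CPM in TAC and 59106 CPM in sham.

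**Figure D3:**
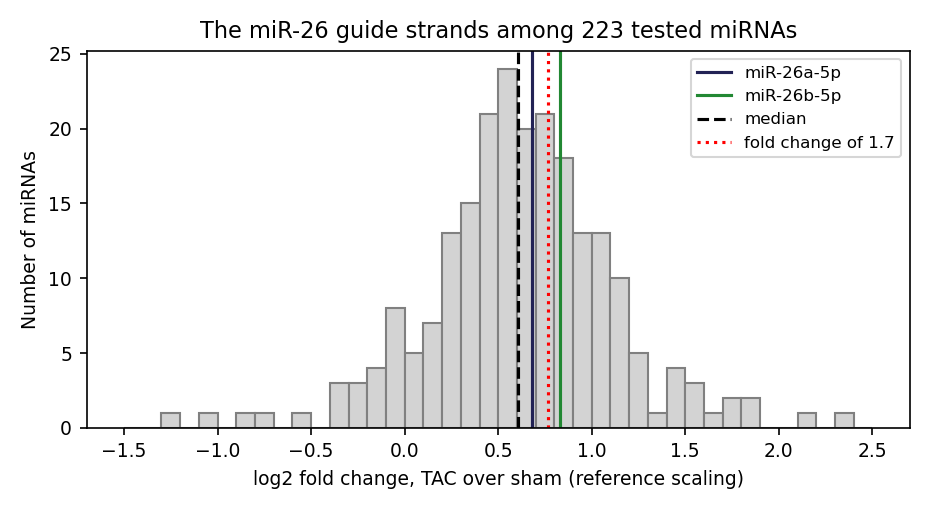
Histogram of the log2 fold changes (TAC over sham, reference scaling) of 223 miRNAs, with the number of miRNAs on the vertical axis and lines at both 5p arms, at the median and at a fold change of 1.7. miR-26a-5p (0.68) and miR-26b-5p (0.83) lie near the median of 0.61 on either side of the 1.7-fold line; by miRNA totals the same median is -0.29 and both members fall below 0.

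A change of scale shifts the log2 fold changes of all miRNAs by nearly the same amount. The distance of a member from their median is therefore nearly fixed in advance, and its likeness across scales is no separate evidence. miR-26a-5p lay above the median by 0.073 on the log2 scale with the reference miRNAs, by 0.069 with TMM, by 0.073 with miRNA totals and by 0.081 with the clean tags of each library as its size. The same differences for miR-26b-5p were 0.22, 0.22, 0.22 and 0.25. These distances rested on single libraries. For miR-26a-5p on the reference scale the distance was -0.039 without sham library 1, -0.014 without TAC library 4 and 0.15 without TAC library 1, so its side of the median is not settled. For miR-26b-5p it was 0.11 without TAC library 3 and 0.37 without TAC library 1, and it stayed above the median with each library left out. No test was made of these distances.

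The 3p arms were read from a fit of the 409 miRNAs that had more than 10 counts on average, whose median log2 fold change was 0.59 on the reference scale. miR-26b-3p stood at 16.4, 8.72, 12.8 and 15.7 CPM in sham, and at 20.3, 25.3, 32.9 and 27.6 reference-scaled CPM in TAC, again without overlap. Its log2 fold change was 0.99 (SE 0.26, adjusted p = 0.0118 by edgeR), a fold change of 1.98, and it was called higher. By totals its TAC values were 10.9, 13.6, 17.7 and 14.8 CPM, which overlapped with sham, and the log2 fold change was 0.089 (adjusted p = 0.836). The call was also lost without sham library 3 (adjusted p = 0.0545 by edgeR) and, through a fold change of 1.67, without sham library 2, the library with the fewest counts of this arm.

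miR-26a-2-3p did not pass the test, with a mean of 2.25 ± 0.456 CPM in sham and 2.82 ± 0.687 reference-scaled CPM in TAC (SD over 4 mice each). Its log2 fold change was 0.31 (SE 0.36, adjusted p = 0.493 by edgeR) and turned to -0.58 by totals and to -0.27 with TMM, none of which passed the test. With reference miRNAs, TMM, totals or clean tags it lay at -0.28 to -0.27 from the median of the 409 miRNAs, and miR-26b-3p at 0.39 to 0.41. That these distances hardly moved with the scale follows from how they are computed. miR-26a-1-3p had a mean of 2.38 counts and was not tested. Of the 409 miRNAs, 29.8% were called higher on the reference scale, and of the 4 members in this fit miR-26b-5p and miR-26b-3p were. The TAC libraries lay above all sham libraries for 39.9% of the 409 miRNAs and for 3 of these 4 members.

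**Figure D4:**
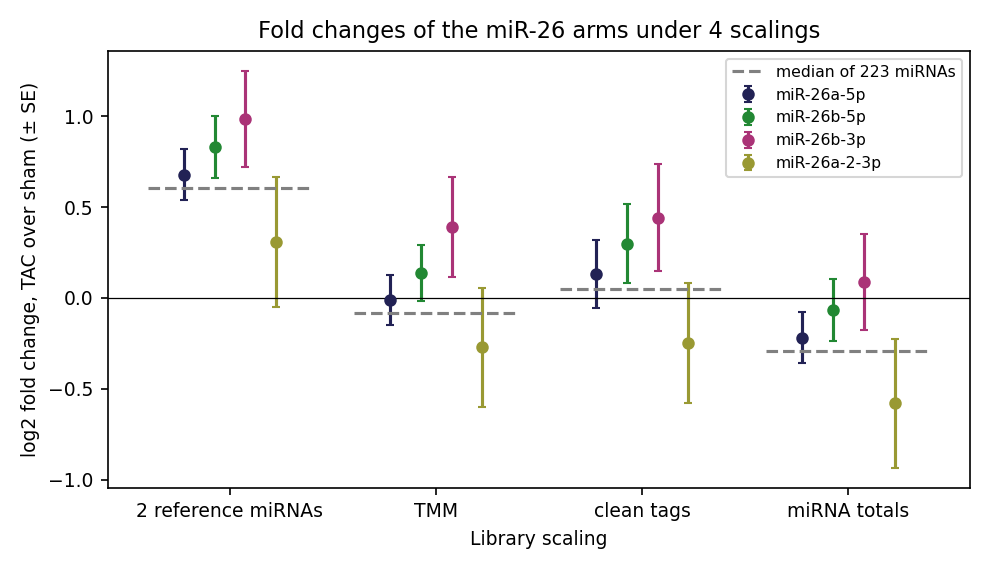
Log2 fold change (TAC over sham) with its SE of 4 members under 4 library scalings; the 5p arms come from the fit of 223 miRNAs, the 3p arms from that of 409, and dashed lines mark the median of the 223. miR-26a-5p moves from 0.68 with the reference miRNAs to -0.22 with miRNA totals and the median moves with it, from 0.61 to -0.29.

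Taken as one quantity, the counts of the 5 members summed to 60046 ± 9940 CPM in sham and 96309 ± 12493 reference-scaled CPM in TAC (SD over 4 mice each), without overlap, as for 54.7% of the 223 miRNAs. Since miR-26a-5p held 98.3% of the family counts, this sum repeats miR-26a-5p and is no separate result. The difference of the mean log2 values was 0.69 (two-sided exact permutation test over 70 arrangements with the reference factor computed anew, p = 0.0286, the smallest p this design allows), and it was -0.21 by totals (exact p = 0.171). With miR-26a-5p left out, the sum, then mostly miR-26b-5p, differed by 0.81 on the reference scale (same exact test, p = 0.0286). The same exact test gave p = 0.0286 for miR-26a-5p, p = 0.0286 for miR-26b-5p, p = 0.0571 for miR-26b-3p and p = 0.257 for miR-26a-2-3p on the reference scale. As a share of all miRNA counts, which needs no reference, the family took 6.0% ± 0.994 in sham and 5.17% ± 0.671 in TAC (SD over 4 mice each). The difference of -0.835 percentage points had a 95% interval of -2.55 to 1.21 (two-sided exact permutation test, p = 0.171). Of the clean tags, which include tags on no miRNA, the family took a mean of 2.42% in sham and 2.66% in TAC.

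Ratios between members within a library depend on no scaling at all. miR-26b-5p amounted to 1.86%, 1.44%, 1.61% and 1.43% of miR-26a-5p in sham and to 1.45%, 1.76%, 1.97% and 1.72% in TAC. The groups overlapped, with means of 1.59% ± 0.200 and 1.73% ± 0.214 (SD over 4 mice each). The log2 ratio differed by 0.12 between TAC and sham (95% interval -0.36 to 0.46, two-sided exact permutation test, p = 0.343, adjusted over 5 ratios 0.429). The interval bounds the unequal change of the guide strands of the Ctdsp1 intron and of the Ctdspl and Ctdsp2 introns, but does not show that they changed alike. In each of the 8 libraries miR-26a-5p exceeded miR-26b-5p, by 50.9 to 69.9 times with a median of 60.03.

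Between the arms of the Ctdsp1 hairpin, miR-26b-3p amounted to 1.49% ± 0.505 of miR-26b-5p in sham and to 1.62% ± 0.0980 in TAC (SD over 4 mice each). The sham libraries ranged from 0.867% in library 2 to 1.92% in library 1, and the TAC libraries, from 1.48% to 1.69%, lay inside that range. As a share of both arms, sham library 2 stood at 0.860% (Wilson 95% interval 0.647 to 1.14) and sham library 1 at 1.88% (1.51 to 2.35), and these are the lowest and the highest of the sham libraries. The intervals cover counting error only and not the spread between mice. The log2 ratio differed by 0.19 between TAC and sham (95% interval -0.38 to 0.96, exact permutation p = 0.571, adjusted over 5 ratios 0.571), so the arm ratio was not distinguishable between the groups.

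**Figure D5:**
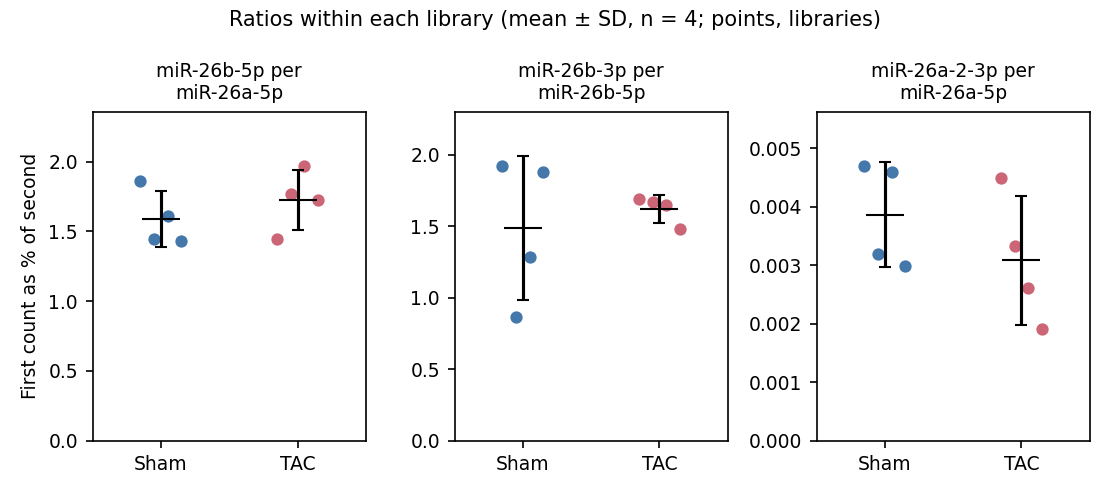
Counts of one member as a percentage of another within each library: miR-26b-5p per miR-26a-5p, miR-26b-3p per miR-26b-5p and miR-26a-2-3p per miR-26a-5p. Points are libraries and lines the mean ± SD (n = 4); sham and TAC overlap in all 3 panels, with means of 1.59% and 1.73% in the first.

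The miR-26a hairpins left far less of their 3p arms. miR-26a-2-3p amounted to 0.00387% ± 0.000902 of miR-26a-5p in sham and 0.00308% ± 0.00110 in TAC (SD over 4 mice each), and the log2 ratio differed by -0.36 (95% interval -1.28 to 0.55, exact permutation p = 0.286, adjusted 0.429). For miR-26a-1-3p per miR-26a-5p the log2 difference was 0.69 (95% interval -0.97 to 3.29, exact permutation p = 0.343, adjusted 0.429). With 1 added to the counts in place of 0.5 this difference was 0.46. Both hairpins encode miR-26a-5p, so each of these ratios may understate the 3p arm of its own hairpin. In all 8 libraries the 3p-to-5p ratio of miR-26b was higher than that of miR-26a with both of its 3p arms summed, by 217 to 629 times with a median of 343.

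Only the 3p arms tell the Ctdspl and Ctdsp2 hairpins apart. Of the 102 counts on the miR-26a 3p arms, 83 were miR-26a-2-3p from Ctdsp2, or 81.4% (Wilson 95% interval 72.7 to 87.7), and miR-26a-2-3p exceeded miR-26a-1-3p in 8 of 8 libraries. The interval pools the libraries and covers counting error only, not the spread between mice. By library, miR-26a-1-3p made up from 0% (sham library 4) to 36.8% (TAC library 2) of the counts on both arms. The share of 5p that each hairpin gave cannot be read from this, since the arms may be retained unequally at each. The log2 ratio of miR-26a-1-3p to miR-26a-2-3p was higher by 1.05 in TAC, with a 95% interval of -1.09 to 3.17 (exact permutation p = 0.143, adjusted 0.429), so no difference was detectable at this depth. With 1 added to the counts in place of 0.5 it was higher by 0.82.

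Over the 8 libraries, the miRNAs whose log2(CPM + 1) by totals ran most closely with miR-26a-5p were miR-374b-5p (Pearson r = 0.942), miR-338-3p (0.899) and miR-451a (0.857), the last an erythroid miRNA. Those most like miR-26b-5p were miR-434-3p (r = 0.898), miR-144-3p (0.814) and miR-451a (0.812), of which miR-144-3p is likewise erythroid. The other 5p arm came at rank 18 for miR-26a-5p and at rank 6 for miR-26b-5p, with r = 0.716. These are descriptions over 8 points that share group, library total and depth, and the members' nearest neighbours were therefore not each other.

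The remaining miRNAs of cardiac growth and fibrosis give the setting in which the family stood. Of 18 such miRNAs, 16 had a mean above 100 counts, 7 were called higher on the reference scale, against 36.8% of all 223 miRNAs, and 15 had an adjusted p below 0.05 with a higher level by edgeR, against 63.7%. None was lower with an adjusted p below 0.05. With TMM, 1 had an adjusted p below 0.05 with a higher level and 0 with a lower one. The 1 was miR-1a-3p, at a log2 fold change of 0.74 (adjusted p = 0.0196 by edgeR), under the fold change of 1.7 that a call required. Their median log2 fold change was 0.62, beside 0.61 for all 223 miRNAs, and turned to -0.066 with TMM. The largest were miR-208b-3p at 1.71, encoded in the slow myosin gene Myh7, miR-1a-3p at 1.44 and miR-133b-3p at 1.17, both muscle miRNAs, and miR-24-3p at 1.12. Both miR-26 5p arms lay inside the range of this list, which ran from 0.46 for miR-30c-5p to 1.71.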

How the data were processed

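Small RNA libraries of 4 sham and 4 TAC mice were compared. The authors deposited, for each library, whole-number counts of tags per mature miRNA, without normalization. Their processing notes name mm10 and StringTie 1.3.1; the miRNA aligner, the miRNA reference release and the treatment of tags that fit several members are not given in the sources used here. Groups were taken from the labels. The members and lists were chosen with earlier results of these data known.

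Counts were tested with edgeR 4.0.16 (R 4.3.3, quasi-likelihood F test, Benjamini-Hochberg adjustment) over miRNAs with a mean above 100, and above 10 for the 3p arms. Library sizes were the miRNA totals, in TAC multiplied by the reference factor of 0.537, which edgeR took as known without error. A miRNA was called where the adjusted p was below 0.05 with a fold change over 1.7. SE was obtained by dividing the log2 fold change by the square root of F. Log2 ratios with a 3p arm used counts plus 0.5. The log2 ratio of the 5p arms and all percentages used plain counts. Single values were compared by two-sided exact permutation over 70 arrangements (smallest p 0.0286), and intervals were obtained by inverting that test. The fit was tested on simulated data with as many miRNAs raised as lowered, both reference miRNAs unchanged and less spread between libraries than fitted here. Such data cannot test the choice of reference, or how the fit performs at the spread of these libraries. No library was a copy of another. Alternatives were TMM, miRNA totals, clean tags, DESeq2 1.42.0, either reference miRNA by itself, a factor for each library, other count minimums, the replicate block and each library left out. Named miRNAs were the members, the references, the 3 most correlated with each 5p arm, the 2 neighbours on either side of miR-26a-5p and the largest of the growth list. Python 3.11.15 with scipy 1.17.1 and matplotlib 3.10.9 made the other values and plots.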

Additional observations from a re-analysis of the deposited data

How the results depend on the processing

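The scaling decided the calls. miRNAs called higher numbered 82, and 3 with TMM, 1 with miRNA totals, 5 with clean tags, 5 with DESeq2's own size factors, 127 without a count minimum and 59 to 106 with a library left out; those called lower numbered 2, and 10, 23, 5 and 10 under the same 4 scalings, 1 with miR-19b-3p alone and 1 to 2 with a library left out. With a mean above 10, 122 were called higher, and 7 with TMM, 1 with totals, 8 with clean tags and 85 to 160 with a library left out. In the order TMM, totals, clean tags, the log2 fold change was -0.013, -0.22 and 0.13 for miR-26a-5p, 0.14, -0.067 and 0.30 for miR-26b-5p, 0.39, 0.089 and 0.44 for miR-26b-3p and -0.27, -0.58 and -0.25 for miR-26a-2-3p, and none passed the test. DESeq2's own size factors gave 0.045 and 0.20 for the 5p arms. The summed family was at -0.00082, -0.21 and 0.13, and its share was 0.238 percentage points higher in TAC with clean tags as the denominator. With a library left out, the log2 fold changes were 0.62 to 0.74 for miR-26a-5p, 0.71 to 0.96 for miR-26b-5p, 0.74 to 1.22 for miR-26b-3p (adjusted p 0.00524 to 0.0545 by edgeR) and 0.16 to 0.49 for miR-26a-2-3p, which fell under the minimum of 10 without sham library 3 and had no value there. The summed family ranged from 0.63 to 0.75, its share from -1.27 to -0.479 points, and the log2 ratios from 0.056 to 0.20 for miR-26b-5p to miR-26a-5p, -0.043 (without sham library 2) to 0.34 for miR-26b-3p to miR-26b-5p, 0.20 to 1.02 for miR-26a-1-3p to miR-26a-5p, -0.57 to -0.16 for miR-26a-2-3p to miR-26a-5p and 0.67 to 1.46 for miR-26a-1-3p to miR-26a-2-3p. The causes were not tested.

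The methods speak of pairs of sham and TAC mice, but the labels do not say that equal replicate numbers mark them. Deviations of same-numbered libraries correlated at 0.168, -0.370, 0.315 and -0.217, so the numbers were not taken as pairs, and whether they mark the pairs of mice is not known. With the replicate block, 76 miRNAs were called higher and 3 lower, miR-26a-5p stood at 0.69 (adjusted p = 0.00584 by edgeR), miR-26b-5p at 0.81 (0.00769) and miR-26b-3p at 1.00 (0.0274), and the summed family at 0.69 with p = 0.125 by exact sign changes, the smallest p that 16 sign patterns allow. With 4 libraries a group, and 19 and 83 counts in all, differences in the miR-26a 3p arms are limited by depth.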
